A study of Mus musculus with 5 samples.

Results

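The 5 chemokine genes Ccl3, Ccl4, Ccl5, Xcl1 and Cxcl10 were followed across single T cells of 5 mouse libraries. They were chosen by symbol among the 32285 genes of the deposited tables, and all 5 were found under the same Ensembl identifiers as in the GENCODE annotation. The study profiled CD4 T cells of OT-II mice, which carry a transgenic T cell receptor (TCR) for an ovalbumin peptide on MHC class II. Splenic cells of a naive animal were enriched with a negative isolation kit, and single-cell RNA was read from the 5' end with 10x chemistry, in which each captured molecule carries a unique molecular identifier (UMI). The labels give 5 groups of 1 sample each: T cells alone without treatment, and T cells kept overnight with apCAFs, fibroblasts of pancreatic tumors that present antigen, which were sorted from the tumors by flow cytometry. The apCAFs came from tumor clone sKPC or rKPC, and each coculture received DMSO or OVA. The T cells of every group were OT-II cells, and the number of mice behind them and the age of the animals are not given in the sources used here.

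The counts came in a pair of aggregated matrices, called G and H here. Barcodes in G carried 3 library suffixes and those in H carried 2, while the labels assign 2 samples to G and 3 to H. No source used here ties a suffix to a sample, so the libraries were kept without a group, as Ga, Gb, Gc, Ha and Hb. A run of 5 values without names always follows this sequence of libraries. Every value below therefore describes a library, and no contrast of coculture, OVA or tumor clone was computed. There are no replicates, and no p-value is given. The matrices were aggregated separately, so levels of a G and an H library set side by side may also differ through that step, which was not tested.

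Barcodes with at least 500 UMIs and at most 10% mitochondrial UMIs were kept, 24890 of 25623, with 3358 to 6943 per library and a median depth of 7780.5 to 8579.5 UMIs. Pairs of libraries shared 2 to 14 barcode sequences. A barcode was called Cd4-positive with a UMI of Cd4 and none of Trdc, the constant segment of the delta receptor chain, and Trdc-positive in the reverse case. Cd4-positive barcodes made up 47.9% to 55.8% of a library and Trdc-positive ones 9.95% to 11.3%, although the label is CD4 T cell. Barcodes with both genes made up 7.23% to 11%, and those with neither, called other, 22.7% to 33.8%. Among all kept barcodes, 410 held at least 10 UMIs of a marker list of B, erythroid, macrophage or monocyte, neutrophil, dendritic, fibroblast, epithelial or basophil cells. Fibroblast markers at this level were found in 0 to 5 barcodes of a library, so the chemokine values below are almost wholly those of other cells.

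Chemokines are small secreted proteins that draw leukocytes along a gradient through G protein-coupled receptors. Ccl3, Ccl4 and Ccl5 draw T cells, NK cells and monocytes, Xcl1 binds Xcr1 on cross-presenting dendritic cells, and Cxcl10 binds Cxcr3 on activated T cells and NK cells. T cells are known to make Ccl3 and Ccl4 soon after receptor stimulation, to store Ccl5 message as memory or cytotoxic cells, and to make Cxcl10 under interferon gamma.

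In GRCm38, the build given as mm10, Ccl3 (ENSMUSG00000000982) lies at chr11:83647844-83649355 on the minus strand. Ccl4 (ENSMUSG00000018930) follows at chr11:83662584-83664683 on the plus strand, 13228 bases away. Ccl5 (ENSMUSG00000035042) lies in the same cluster at chr11:83525778-83530518 on the minus strand. Xcl1 (ENSMUSG00000026573) lies at chr1:164931644-164935527 and Cxcl10 (ENSMUSG00000034855) at chr5:92346638-92348889, both on the minus strand, with Cxcl9 18558 bases from Cxcl10. Cxcl10 has 4 exons and the other 4 genes have 3 each.

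The 250 bases before the start of Ccl3, Xcl1 and Cxcl10 are shown, the 3 of the 5 genes matched in the sequence table used, to set the letters of these promoters side by side. Those of Ccl4 and Ccl5 were not searched. The sequences are from RefSeq on GRCm38.p6, minus strand, written 5′ to 3′, at chr11:83649379-83649628 for Ccl3, chr1:164935523-164935772 for Xcl1 and chr5:92348890-92349139 for Cxcl10. Capitals mark the letters of a searched motif.
Ccl3: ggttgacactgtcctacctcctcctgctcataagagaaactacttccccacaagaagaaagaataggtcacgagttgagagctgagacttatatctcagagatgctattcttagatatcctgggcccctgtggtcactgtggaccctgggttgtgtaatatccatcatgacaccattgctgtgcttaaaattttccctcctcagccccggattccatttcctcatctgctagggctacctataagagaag
Xcl1: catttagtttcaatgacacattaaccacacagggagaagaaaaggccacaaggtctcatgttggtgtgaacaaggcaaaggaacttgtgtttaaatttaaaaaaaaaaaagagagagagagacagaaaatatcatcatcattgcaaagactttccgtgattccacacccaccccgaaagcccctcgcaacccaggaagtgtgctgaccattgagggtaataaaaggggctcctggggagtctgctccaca
Cxcl10: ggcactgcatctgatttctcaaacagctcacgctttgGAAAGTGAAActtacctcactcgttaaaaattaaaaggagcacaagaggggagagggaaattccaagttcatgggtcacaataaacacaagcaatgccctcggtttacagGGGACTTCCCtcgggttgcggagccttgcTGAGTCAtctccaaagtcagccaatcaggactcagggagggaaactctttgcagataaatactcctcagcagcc
Both strands were searched for 5 motifs, and 3 of them were found, each in Cxcl10 alone of the 3 windows. The interferon-stimulated response element core, GAAA and GAAA with any 2 bases between them, stood 213 to 204 bases before the start as GAAAGTGAAA, and 978 of 32851 windows of the same length (2.98%) held it. The NF-kB motif, GGGA, any base, TT, any base and CC, stood at 103 to 94 bases as GGGACTTCCC, and 322 windows (0.980%) held it. The AP-1 motif TGANTCA stood at 74 to 68 bases as TGAGTCA, and 2217 windows (6.75%) held it. The CRE motif TGACGTCA (1.55% of windows) and the NFAT core spaced from AP-1, GGAAA and TGA with any 5 bases between them (1.28%), were in none of the 3. None of these motifs overlapped another here, and a match is a description of letters and not a site of binding.

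Ccl4, a chemokine that draws T cells and monocytes, separated the libraries most over all kept barcodes. Its level there, in CPM (UMIs of the gene per 1e6 UMIs, with the exact 95% Poisson interval), was 37.5 (36.0 to 39.1) for Gc and 32.2 (30.6 to 33.8) for Ga, then 2.91 (2.39 to 3.50) for Ha, 2.68 (2.10 to 3.38) for Gb and 1.06 (0.744 to 1.46) for Hb. Ga and Gc stood far above the other 3 libraries and no interval of the 2 sets met. These intervals, and all others here, cover counting error only. From the lowest to the highest library Ccl4 spanned 5.13 on the log2 scale, with 0.5 added to each count, and 6.29 once barcodes with markers of other cell types were set apart. Within Cd4-positive barcodes its span of 4.84 was below those of Ccl3, Xcl1 and Cxcl10, at 6.25, 5.54 and 4.91.

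Ccl3, the neighbour of Ccl4 and a ligand of Ccr1, was rarer, at 5.04 CPM in Ga and 5.48 in Gc, and 2.35, 3.84 and 1.89 in Gb, Ha and Hb. The same Ga and Gc were highest, by a span of 1.53 on the log2 scale. Without the barcodes that held markers of other cell types the levels were 3.61, 0.355, 3.08, 0.665 and 0.118 CPM, and the span was 4.77. The lower libraries thus lost most of their Ccl3 in this step and Ga and Gc kept most of theirs.

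Cxcl10 measured 12.0 CPM in Ga and 12.3 in Gc, and 3.75, 1.39 and 2.11 in Gb, Ha and Hb, a span of 3.14 on the log2 scale. Ga and Gc were again highest and Gb lay between them and the H libraries. Xcl1 measured 4.42, 1.62, 5.32, 1.39 and 1.71 CPM, a span of 1.93. Its excess in Ga and Gc rested on few cells, as described under that gene.

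Ccl5 was the most abundant by UMIs and the most even. It measured 181 CPM in Ga and 149 in Gc, and 179, 175 and 174 in Gb, Ha and Hb, a span of 0.28 on the log2 scale. Ga and Gc, which were highest for the other 4 genes, lay at the top and the bottom of this narrow range. Over all kept barcodes 4 of the 5 genes spanned at least 2-fold, where 14.7% of all genes with at least 100 UMIs did. Without the barcodes with other markers it was again 4 of 5, against 10.4% of genes, and within Cd4-positive barcodes 5 of 5, against 9.15%. The median span of the 5 genes without other markers was 3.12, against 0.37 over all genes tested. Within Cd4-positive barcodes the call of Ccl5 rested on a range from 17.3 CPM in Gc to 46.3 in Ha, and its span was 1.42 with Gc and 0.91 without it.

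**Figure D1:**
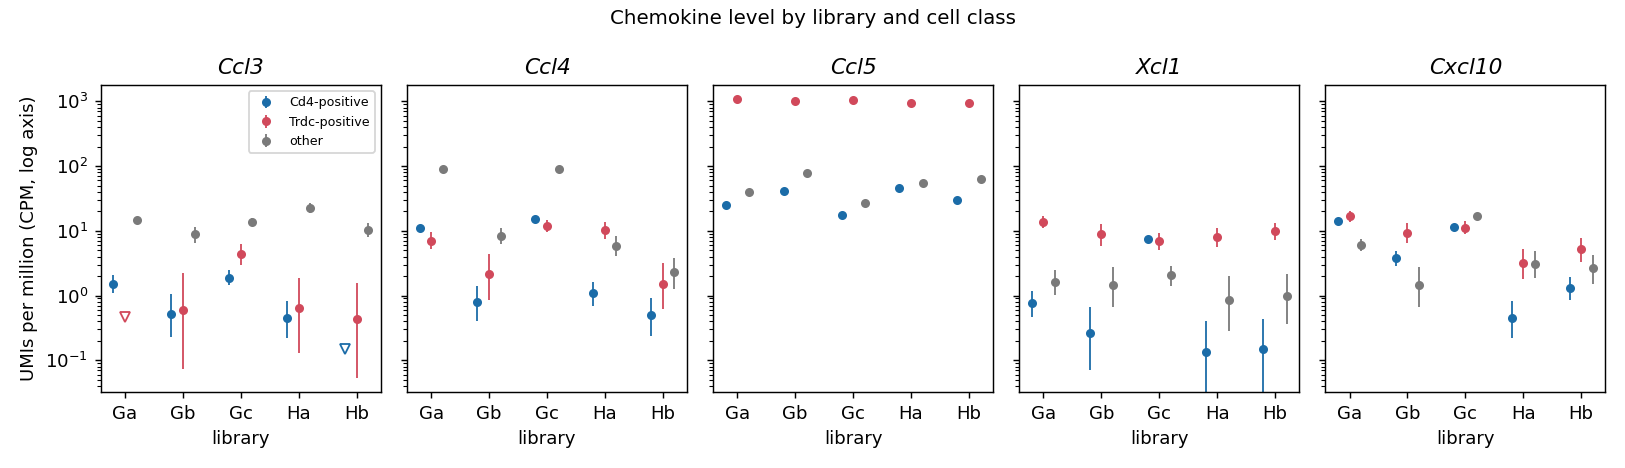
Level of each chemokine gene by library and cell class, in CPM on a log axis, with exact 95% Poisson intervals. Open triangles mark 0 UMIs and are drawn at the level of 3 counts. Ccl5 in Trdc-positive barcodes sits near 1000 in each library, and Ccl4 is highest in the barcodes without Cd4 and Trdc of Ga and Gc.

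Few barcodes held each gene apart from Ccl5. Over all libraries 126 barcodes had Ccl3, 309 had Ccl4, 233 had Xcl1, 542 had Cxcl10 and 2314 had Ccl5. A single UMI was all that was seen in 62 of the Ccl3-positive, 147 of the Ccl4-positive, 168 of the Xcl1-positive and 335 of the Cxcl10-positive barcodes. Free RNA in the droplets was gauged in 168 barcodes with erythroid markers and no Cd3 UMI, with a median depth of 8410 UMIs. In them Ccl3, Ccl4 and Cxcl10 had 0 UMIs, which allows a share of up to 1.79% of such barcodes, and Ccl5 and Xcl1 had 1 positive barcode each (0.595%). A share below 1.79% is therefore not shown to be above background by this measure, while its barcodes with 10 or more UMIs are far from a single stray molecule.

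**Figure D2:**
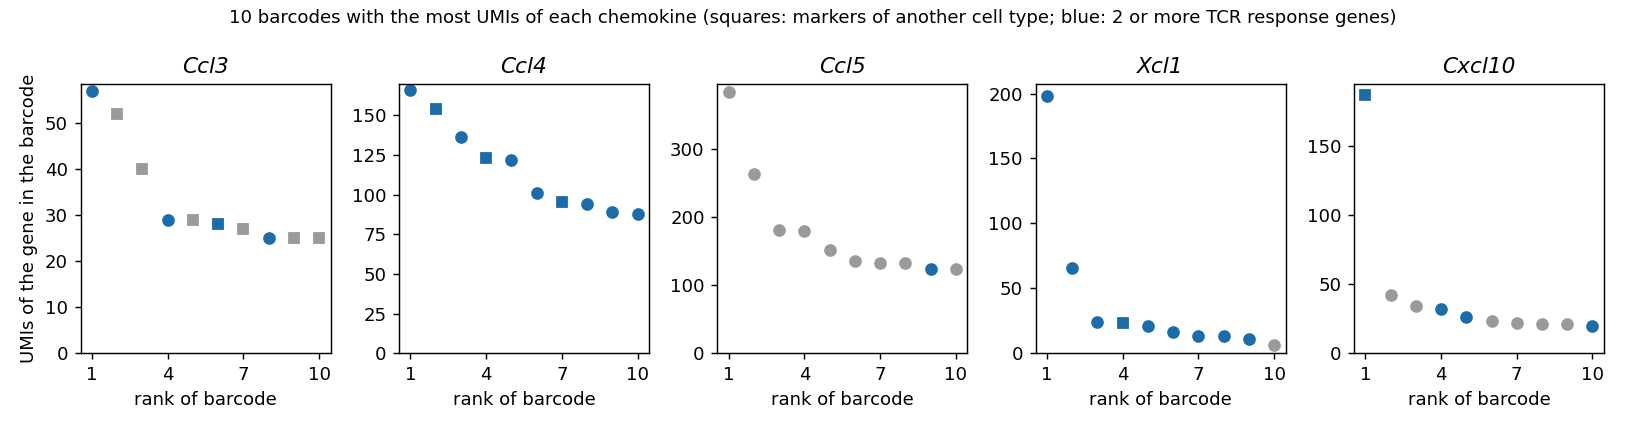
UMIs of each gene in its 10 highest barcodes over all libraries, by rank. Squares hold markers of another cell type and blue symbols hold at least 2 of 8 TCR response genes. All 10 of the highest Ccl4 barcodes are blue, while 1 of the 10 highest Ccl5 barcodes is.

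Ccl4 UMIs were packed into a small number of cells. The 10 highest barcodes held 53.9% of the Ccl4 UMIs in Ga and 44.4% in Gc, and 93.2%, 89.9% and 86.5% in Gb, Ha and Hb. In Gb a barcode with basophil markers held 44 of 73 UMIs, and in Ha a Trdc-positive barcode with 6 TCR response genes held 44 of 109. The highest barcode of all, in Gc, had 166 Ccl4 and 57 Ccl3 UMIs among 14093.

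Cells responding through the TCR were marked by Nr4a1, Nr4a2, Nr4a3, Egr1, Egr2, Egr3, Irf4 and Il2ra, a list of immediate receptor targets and the interleukin 2 receptor alpha chain. At least 2 of these 8 genes were detected in 1081 cells of Ga (19.2%) and 1162 of Gc (17.0%), and in 37 of Gb (1.13%), 50 of Ha (1.10%) and 29 of Hb (0.691%), barcodes with other markers left out. Ga and Gc thus held nearly all such cells, and they are the libraries with high Ccl4. These cells carried 96.3% of the Ccl4 UMIs in Ga and 77.5% in Gc, and another 20.4% in Gc lay in barcodes with markers of other cell types.

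The share of cells with a Ccl4 UMI rose with the number of response genes detected. Each cell was thinned to 1500 UMIs for this, which leaves out 2102 shallower barcodes of all libraries, and Cd4-positive and other cells were used. In Ga 0.127% of cells with 0 response genes had Ccl4, 1.33% with 1, 2.05% with 2, 6.75% with 3 and 7.39% with 4 or more (95% exact binomial interval 4.36 to 11.6). In Gc the shares were 0.196%, 1.18%, 2.22%, 7.09% and 10.5% (7.07 to 15). Both libraries gave the same order, and the lowest and highest bins did not overlap. Before thinning the shares were 0.532% and 10.8% in the lowest and highest bins of Ga, and 0.682% and 12.3% in those of Gc, so most of the cells with 4 or more response genes had no Ccl4 UMI.

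**Figure D3:**
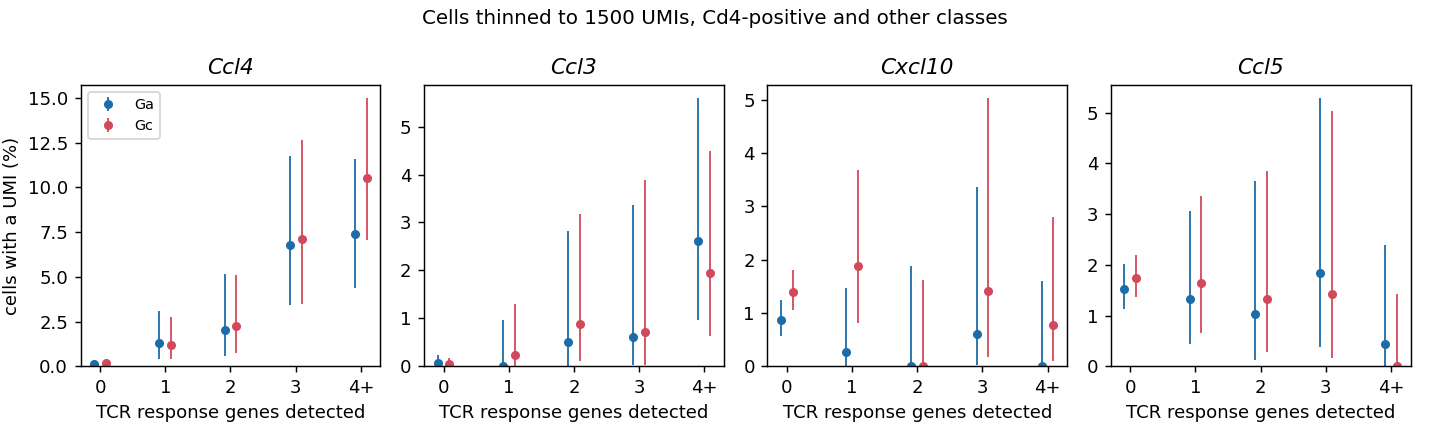
Share of cells with a UMI of Ccl4, Ccl3, Cxcl10 or Ccl5, in percent, by the number of TCR response genes detected, in Cd4-positive and other cells of Ga and Gc thinned to 1500 UMIs. Bars are exact 95% binomial intervals; the vertical scales differ. Ccl4 climbs to 7.39% in Ga and 10.5% in Gc.

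Within Cd4-positive cells thinned in the same way, Ccl4 had 26 UMIs in 192 responding cells of Ga and 6 in 2282 cells without a response gene. In Gc it had 39 UMIs in 211 cells and 6 in 2902. The responding cells were higher by 5.60 on the log2 scale in Ga (4.37 to 7.26) and by 6.39 in Gc (5.23 to 8.01). In the broader set of Cd4-positive and other cells without other markers, not thinned, the levels were 142 against 0.707 CPM in Ga and 147 against 0.943 CPM in Gc. Ccl4 was thus more than 100-fold higher in responding cells of that set in both libraries, 195-fold in Ga and 153-fold in Gc.

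Ccl3 followed Ccl4 at a lower level. In the broader set it measured 15.3 CPM in responding cells and 0.283 in the rest in Ga, and 14.7 against 0.363 in Gc, higher by 5.64 and 5.27 on the log2 scale. In thinned Cd4-positive cells the counts were too small to weigh, with 1 UMI against 1 in Ga and 6 against 1 in Gc. In Cd4-positive and other cells thinned alike, Ccl3 was found in 0.0637% of cells with 0 response genes and 2.61% with 4 or more in Ga, and in 0.0490% and 1.95% in Gc.

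Xcl1 was higher in responding cells as well, at 2.69 against 0.424 CPM in Ga and 22.6 against 0.290 CPM in Gc in the broader set. Only 6 of 957 responding cells of Ga and 7 of 1037 of Gc had it, and a single barcode of Gc held 198 of the 250 UMIs, without which Gc measured 4.73 CPM. In thinned Cd4-positive cells of Gc the ratio of 6.10 on the log2 scale was 2.22, with no lower limit, without the 10 highest barcodes. Cxcl10 was not higher in that set: it measured 5.28 against 6.17 CPM in Ga and 11.2 against 11.8 CPM in Gc. Ccl5 was lower in CPM in responding cells, at 8.06 against 41.4 CPM in Ga and 10.5 against 23.6 CPM in Gc. The share of cells with a Ccl5 UMI was nearly the same, at 4.49% against 4.44% in Ga and 4.34% against 4.67% in Gc. Those in Ga held 84 UMIs in 43 responding cells and 880 in 125 cells without a response gene. After thinning the shares were 1.02% against 1.53% in Ga and 0.804% against 1.74% in Gc. By the rule of 2-fold in both libraries, 3 of the 5 genes were higher and 1 was lower in responding cells of the broader set, where 10.1% of all genes were higher and 10.6% lower. In thinned Cd4-positive cells 3 were higher and 0 lower, against 10.9% and 6.62% of all genes. There the call of Xcl1 rested on 1 UMI against 0 in Ga and 7 against 1 in Gc.

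Cells with many Ccl4 molecules were nearly all responding cells. At least 10 Ccl4 UMIs were found in 30 cells of Ga, 45 of Gc and 2 of Ha, and in 0 of Gb and Hb, barcodes with other markers left out. These 77 cells held 88.8% of the Ccl4 UMIs, and 76 of them had at least 4 of the 8 response genes. Ccl3 was present in 33 of them and Cxcl10 in 2. A Cd4 UMI was missing from 58 of the 77, which places most of them in the class called other or among Trdc-positive cells. The share of cells with a Cd4 UMI fell along the same bins, from 25.2% with 0 response genes to 6.52% with 4 or more in Ga and from 25.5% to 6.64% in Gc after thinning, so the class of a Ccl4 cell does not tell its lineage.

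Ccl4 was found in a larger share of cells with Ccl3 than of cells without it. Of Ccl3-positive cells without other markers, 19 of 29 in Ga (65.5%) and 20 of 33 in Gc (60.6%) had Ccl4, against 1.41% and 1.78% of cells without Ccl3. After thinning the shares were 9 of 11 (81.8%) and 7 of 11 (63.6%). Seen from Ccl4, 41 of 270 Ccl4-positive cells of all libraries (15.2%) had Ccl3. In Gb, Ha and Hb the few Ccl4-positive cells mostly had Ccl5, 7 of 8, 7 of 12 and 8 of 11. Of cells without Ccl4 there, 7.35%, 9.76% and 8.62% had Ccl5. In Ga and Gc the shares were 11.2% and 12.1% with Ccl4, against 9.88% and 9.37% without it. Thinning left 1, 3 and 0 Ccl4-positive cells in Gb, Ha and Hb.

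Much of the Ccl3 lay in barcodes that also held markers of other cell types. These held 30.4% of the Ccl3 UMIs in Ga and 46.3% in Gc, and 85.9%, 83.3% and 93.9% in Gb, Ha and Hb, or 469 of 862 UMIs in all. In the 3 libraries with few responding cells these barcodes held over 80% of the gene. Macrophage or monocyte markers marked 66 barcodes with 317 Ccl3 UMIs, and basophil markers 14 barcodes with 102. Ccl3 was detected in 11 of those 14 basophil-marked barcodes (78.6%) and in 26 of the 66 macrophage-marked ones (39.4%).

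Single barcodes weighed heavily there. In Ha a macrophage-marked barcode of 47001 UMIs, with 695 UMIs of the lysozyme gene Lyz2, held 52 of the 144 Ccl3 UMIs, and in Hb the highest barcode held 25 of 66. Ccl4 was split differently: other markers took 1.98% of its UMIs in Ga and 20.4% in Gc, and 86.3%, 31.2% and 51.4% in Gb, Ha and Hb. No doublet caller was run, and a barcode with markers of another type may also hold a T cell.

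**Figure D4:**
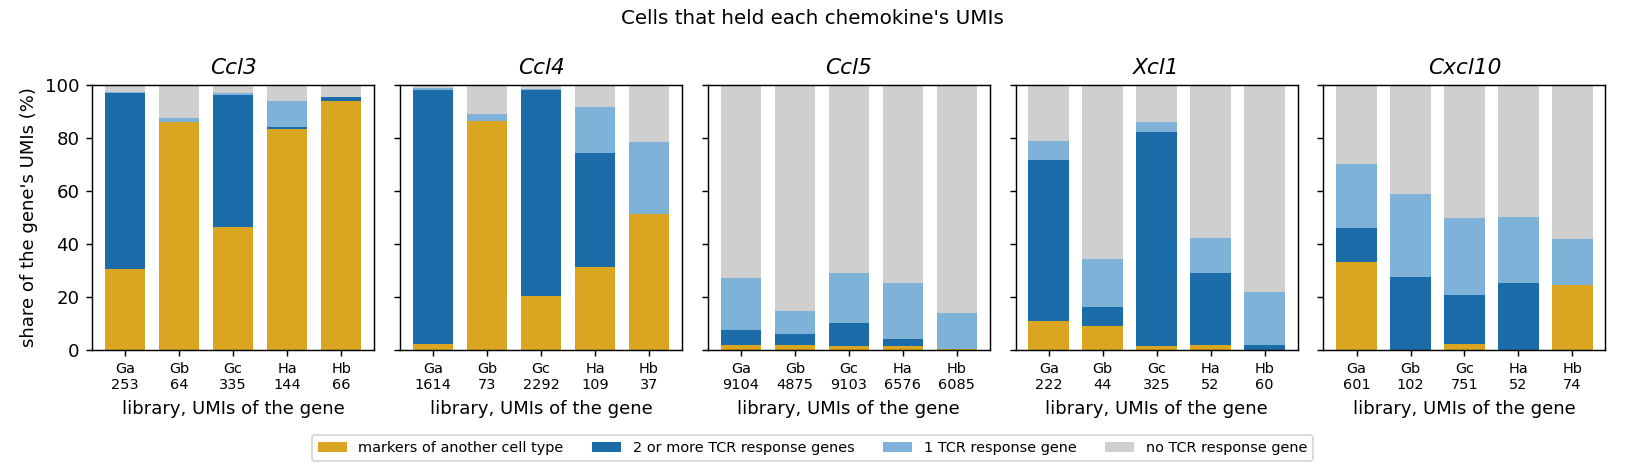
Share of each gene's UMIs, in percent, by the kind of barcode that held them, with the UMIs of the gene in each library below the bar. Yellow is markers of another cell type, blue at least 2 TCR response genes, light blue 1 and grey none. Ccl4 in Ga is 96.3% blue, Ccl3 in Hb is 93.9% yellow, and Ccl5 is mostly grey in each library.

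Ccl5, a ligand of Ccr1 and Ccr3, belonged to the Trdc-positive cells. Their level was 1088 CPM in Ga and 1029 in Gc, and 1007, 955 and 943 in Gb, Ha and Hb. The 5 libraries lay within a span of 0.21 on the log2 scale. Cd4-positive cells held 24.6, 40.6, 17.3, 46.3 and 29.6 CPM. The Trdc-positive level was 44.1-, 24.8-, 59.5-, 20.6- and 31.8-fold higher, with log2 values of 5.46, 4.63, 5.90, 4.37 and 4.99. Trdc-positive cells were at least 2-fold higher than Cd4-positive cells in each library for this gene and for 2.51% of the genes tested, and at least 2-fold lower for 0.916%, with none of the other 4 chemokines called in either direction. For Ccl4 the direction differed between libraries. Without barcodes with other markers its log2 ratio was 4.59, 5.34 and 2.91 in Gb, Ha and Hb, and -0.54 and -0.37 in Ga and Gc. Trdc-positive cells of Gb, Ha and Hb held only 7, 48 and 7 Ccl4 UMIs, with 44 of the 48 in a single barcode. Within Trdc-positive cells 3 of 4 chemokines with at least 100 UMIs spanned 2-fold over libraries (9.31% of all genes did), namely Ccl4, Xcl1 and Cxcl10, and Ccl5 did not. Without barcodes with other markers Xcl1 fell just short of 2-fold there, at 13.9 CPM in Ga and 6.99 in Gc.

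Of the Trdc-positive cells 46.0%, 44.0%, 47.2%, 45.6% and 44.2% had a Ccl5 UMI, and after thinning 34.4%, 33.1%, 34.9%, 33.2% and 34.5%. The positive cells held a median of 17, 18, 14, 13 and 16 UMIs. Of those deep enough to thin and without other markers, 732 held at least 10 Ccl5 UMIs, 456 held fewer and 1362 none. The Trdc-positive cells held 74.1% of all Ccl5 UMIs, and barcodes with both Cd4 and Trdc another 10.3%.

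The Trdc-positive cells with Ccl5 differed from those without it in other genes. A list of cytotoxic and NK genes was higher in them by 2.47 on the log2 scale in Ga and 2.19 in Gc, and 2.18, 1.78 and 2.30 in Gb, Ha and Hb. The TCR response list was lower by 2.15 in Ga and 2.45 in Gc, the libraries with enough UMIs of it to compare. The sum of gamma-delta receptor genes differed by 0.12 to 0.32. Cells were then split at 10 Ccl5 UMIs, with genes chosen after first values were seen. Of the 732 Trdc-positive cells with at least 10, 48.2% had Klrd1, an NK receptor gene, 34.2% Ly6c2, 16.1% Nkg7, a cytotoxic granule gene, and 1.09% Cd163l1, a gene of interleukin 17 type gamma-delta cells. Of the 1362 without Ccl5 the shares were 15.1%, 3.38%, 4.04% and 2.72%. A Cd3 gene was found in 85.4% of the former and 82.6% of the latter, and the NK gene Ncr1 in 0.546% of the former and in 0 of the latter, which allows up to 0.220%, all after thinning.

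In Cd4-positive cells Ccl5 was mostly a single UMI, in 411 of 535 positive cells, but 62 cells held at least 10. The 3 highest Ccl5 barcodes of the series were Cd4-positive cells, with 383 UMIs in Ha, 264 in Gb and 181 in Hb, and they had 14, 10 and 8 UMIs of Nkg7. In 57 Cd4-positive cells with at least 10 Ccl5 UMIs, deep enough to thin and without other markers, 42.1% had Nkg7 and 22.8% the memory marker Cd44. In Cd4-positive cells without Ccl5 the shares were 0.314% and 4.77%.

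**Figure D5:**
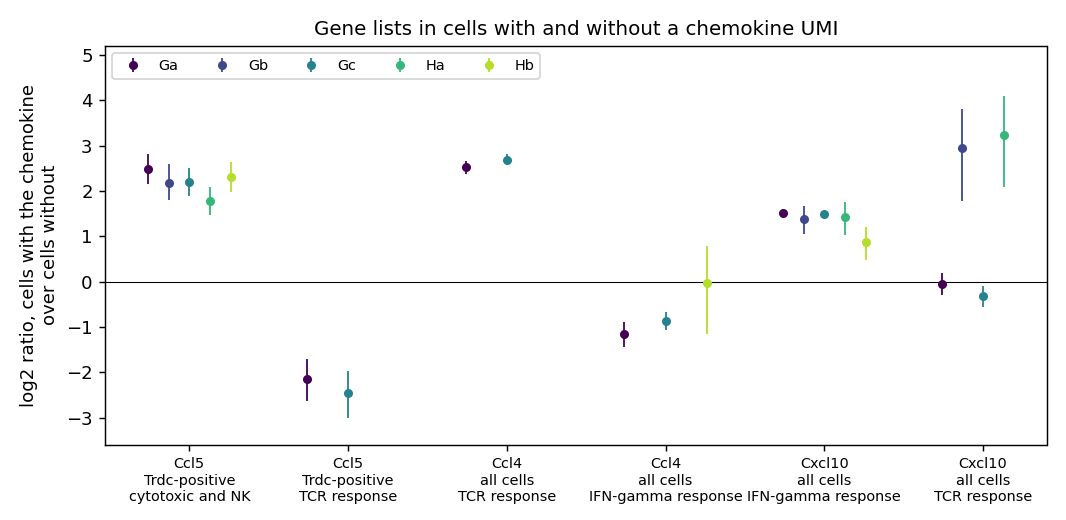
Log2 ratio of the summed level of a gene list in cells with the chemokine over cells without it, per library, with exact 95% intervals. List genes were counted after thinning to 1500 UMIs. Cells were grouped by the chemokine before thinning, so the groups may differ in depth. Points with fewer than 10 list UMIs in the positive cells are left out. Cytotoxic and NK genes are higher with Ccl5 in Trdc-positive cells in each of the 5 libraries, and interferon gamma response genes are higher with Cxcl10 in all 5.

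Xcl1, the ligand of Xcr1, was also a gene of Trdc-positive cells, at a far lower level. It measured 13.8, 8.79, 6.86, 8.03 and 9.80 CPM there. In Cd4-positive cells it measured 0.761, 0.263, 7.36, 0.136 and 0.150 CPM. Trdc-positive cells were above Cd4-positive cells in 4 libraries and level with them in Gc. In Gc a Cd4-positive barcode of 37054 UMIs with 4 TCR response genes and 7 UMIs of Ifng, the interferon gamma gene, held 198 of the 325 Xcl1 UMIs. In Ga a barcode with both Cd4 and Trdc held 66 of 222, with 7 response genes and 13 Ifng UMIs. Without the 10 highest barcodes of each library the span of Xcl1 over all kept barcodes fell to 0.82, and its smallest Trdc-positive to Cd4-positive ratio moved from -0.09 to 4.49 on the log2 scale.

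Of the Trdc-positive cells 6.51%, 5.99%, 4.99%, 5.36% and 7.28% had a Xcl1 UMI. Of 227 Xcl1-positive cells without other markers, 179 also had Ccl5 (78.9%), against 8.61% of cells without Xcl1. After thinning it was 25 of 43 (58.1%) against 5.53%. These shares pool the cell classes, and Trdc-positive barcodes made up 67.0% of all Xcl1-positive ones. Of thinned Trdc-positive cells 33.1% to 34.9% in a library had Ccl5. The shares within a class are not given here. The cells with the most Xcl1 were of another kind: 8 of the 10 highest barcodes had at least 2 TCR response genes and no markers of another cell type, whereas 31 of all 227 (13.7%) did.

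Cxcl10, a ligand of Cxcr3, stood apart from the other genes in its cells. Cd4-positive cells held 14.3 CPM in Ga and 11.6 in Gc, and 3.82, 0.454 and 1.30 in Gb, Ha and Hb, and Trdc-positive cells 16.7, 9.39, 11.2, 3.17 and 5.22. Both classes were highest in Ga and Gc and lowest in Ha. The value of Cd4-positive cells in Ga rested on 1 barcode with dendritic cell markers, which held 187 of their 356 UMIs. Without barcodes with other markers Cd4-positive cells held 6.65, 3.85, 11.5, 0.462 and 1.30 CPM and Trdc-positive cells 16.9, 9.92, 11.4, 3.18 and 1.35. Gc was then above Ga in Cd4-positive cells, Hb was lowest in Trdc-positive cells, and the Trdc-positive excess in Ga was 1.34 on the log2 scale (0.98 to 1.70). With all barcodes Trdc-positive cells lay above Cd4-positive cells apart from Gc, where the ratio was 0.965 and its interval held equality. The excess in Ga was then small, at 16.7 against 14.3 CPM. In Hb 1 barcode with macrophage or monocyte markers held 18 of the 24 Cxcl10 UMIs of Trdc-positive cells. Without barcodes with other markers the Hb ratio was 0.14 on the log2 scale (-1.52 to 1.37).

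Cxcl10 did not rise steadily with the number of TCR response genes in Ga and Gc, and its relation to them changed with the depth and with the barcodes kept. After thinning it was found in 0.860% of cells with 0 response genes and in 0 of 230 with 4 or more in Ga (upper bound 1.59%), and in 1.40% and 0.781% in Gc. Before thinning the shares with 0, 1 and 2 response genes were 2.45%, 3.44% and 5.22% in Ga, and 3.22%, 5.85% and 6.18% in Gc, and with 4 or more they were 2.09% and 2.81%. In thinned Cd4-positive cells of Ga, responding cells were higher by 0.54 on the log2 scale (-2.89 to 2.29), and by 1.51 (0.34 to 2.49) when thinned to 3000 UMIs. In Gc the values were 0.11 and 0.56, with intervals that held 0. Only 9 of 528 Cxcl10-positive cells had Ccl4 (1.70%), against 1.09% of cells without Cxcl10, and 1 had Ccl3.

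Cells with Cxcl10 were higher in interferon gamma response genes in each library. The list of 13 genes was above that in cells without Cxcl10 by 1.51 on the log2 scale in Ga and 1.49 in Gc, and 1.38, 1.42 and 0.86 in Gb, Ha and Hb. The guanylate-binding protein gene Gbp5 measured 293 CPM in Cxcl10-positive cells of Ga and 41.0 in the rest, and 396 against 63.4 in Gc. Cxcl10-positive cells in Ga and Gc did not carry more of the TCR response list, which differed by -0.05 and -0.32. In Gb and Ha, where few cells respond, it was higher by 2.94 and 3.24, each from 10 UMIs. Ccl4-positive cells showed the other order, with the TCR response list higher by 2.52 in Ga and 2.69 in Gc and the interferon gamma list lower by 1.15 and 0.87.

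A single barcode carried much of Cxcl10 in Ga. It held 187 of 601 UMIs, with 67506 UMIs in all, 187 UMIs of Cxcl9, the neighbouring Cxcr3 ligand gene, 603 of Trac and markers of dendritic cells. Without barcodes with other markers Ga measured 8.25 CPM, Gb 4.02, Gc 12.6, Ha 1.44 and Hb 1.65. The order of the libraries was then Gc, Ga, Gb and the H libraries. The intervals of Ha and Hb overlapped.

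The genes whose levels were most like each member were ranked over 15 sums, 3 cell classes in each of 5 libraries, among 14805 genes, as Pearson's r of log2(CPM + 1). These sums share libraries and depth and include barcodes with markers of other cell types, so r is a description. Ccl4 was closest to Wdr36 (0.961), Smarca4 (0.956), Tfrc, the transferrin receptor gene (0.948), Sec61a1 (0.948) and Pycr1 (0.946). Ccl5 was closest to Gm30948 (0.996), Samd3 (0.991), Disc1 (0.991), Klrd1 (0.991) and Il10rb (0.986). Cxcl10 was closest to Dis3l2 (0.890) and to the interferon-inducible GTPase genes Gbp7 (0.874), Gbp6 (0.869), Gbp3 (0.868) and Gvin1 (0.859). Ccl3 was closest to B930036N10Rik (0.940), the hemoglobin gene Hbb-bt (0.938), Zfp791 (0.938), Slpi (0.936) and the B cell gene Ly6d (0.933), and Xcl1 to Gsap (0.934). The 229 barcodes with erythroid markers held 0 Ccl3 UMIs, and the 59 with B cell markers held 24 of 862. Ccl3 and Ccl4 reached 0.603, and Xcl1 and Ccl5 0.771.

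Cxcr3, the receptor gene of Cxcl10, was more even over libraries than Cxcl10. Without barcodes with other markers it measured 21.7, 25.2, 17.9, 31.1 and 26.5 CPM. Ha was highest and Gc lowest, and the span did not reach 2-fold. There the receptor genes Ccr1, Ccr3 and Xcr1 had fewer than 100 UMIs each. Over all kept barcodes Ccr1 had 153 UMIs and spanned 1.79 on the log2 scale, with 0.478 CPM in Ga and 1.23 in Gc, and 0.441, 0.800 and 0.343 in Gb, Ha and Hb. Without barcodes with other markers, 13 other chemokine receptors had at least 100 UMIs and 5 of them reached 2-fold, among them Ccr8, at 1.89 CPM in Ga and 1.22 in Gc against 0.384 in Hb, and Ccr4, at 4.25 and 4.76 against 1.30.

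Of 30 other chemokine ligands, 4 had at least 100 UMIs without other markers, and 1 of them, the platelet factor gene Pf4, reached 2-fold. Over all kept barcodes 14 could be tested and 11 reached 2-fold. Ccl22, a ligand of Ccr4, measured 10.3 CPM in Ga and 18.6 in Gc, and 0.147, 2.72 and 0 in Gb, Ha and Hb over all kept barcodes, and had fewer than 100 UMIs once barcodes with other markers were set apart. Among the ligands with at least 100 UMIs without other markers, the wide spans were thus those of Ccl3, Ccl4, Xcl1, Cxcl10 and Pf4. Ligands with fewer UMIs were not tested. Within Cd4-positive barcodes, those with other markers included, 7 of the other ligands could be tested. Of these, 4 reached 2-fold, namely Ccl22, Cxcl3, Cxcl9 and Pf4.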

How the data were processed

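The deposited files held UMI counts per gene and barcode of 5 unassigned libraries in 2 aggregated matrices. Cell Ranger 6.0.0 and the build mm10 are named in the submitters' processing notes, and per the file headers the matrices were written by cellranger 7.1.0. No source used here says whether aggregation equalised depth. Counts were summed per library and class with Python 3.11.15, numpy 2.4.6, pandas 2.3.3 and scipy 1.17.1, and divided by the summed UMIs to give CPM. Spans and ratios had 0.5 added to each count and were called at 2-fold for genes with at least 100 UMIs. Their code was tested on simulated data. Shares were compared in cells thinned to 1500 UMIs. Receptor response ratios used libraries with at least 50 responding cells.

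The members and gene lists were chosen with earlier results of these data known. Named genes were the 5 members, the 5 genes most like each, and genes of the receptor, ligand, TCR response, interferon gamma and cytotoxic lists. Where a symbol occurred more than once the first entry was used. The basophil list and the genes in the Ccl5 split were chosen after seeing the data. With 1 unassigned library per group no test was run. Some genes of these lists are not reported here.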

Additional observations from a re-analysis of the deposited data

How the results depend on the processing

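No paired analysis was possible because the libraries could not be tied to samples and no test was run. The number of chemokine genes that spanned 2-fold within Cd4-positive barcodes was 5 in the values above. It was 3 without the 6% of barcodes with the most UMIs and 3 without the 10 highest barcodes of each gene and library, since Ccl3 and Xcl1 then had fewer than 100 UMIs, while all 5 still spanned 2-fold. It was 2 to 5 when each library was left out in turn. The lowest was without Gc, where Ccl3 and Xcl1 had too few UMIs and Ccl5 did not span 2-fold. The number higher in Trdc-positive than in Cd4-positive cells in each library was 1, and 2 in both of those barcode settings, where Xcl1 joined Ccl5. Ccl3 over all kept barcodes spanned 1.53, and 6.87 without its 10 highest barcodes. Ccl4 spanned 5.13, and 3.80 without Hb. Within Cd4-positive barcodes Ccl3 spanned 6.25 with Hb, which had 0 UMIs, and about 2 without it. Of 215 member values under alternatives, 179 stayed within the counting interval of the main value and 36 did not. Some of the 179 could not move, since leaving out a library that is neither highest nor lowest keeps a span. Other intervals were wide, such as -2.72 to 9.87 for Ccl3 in responding cells of Ga, or had no upper limit. This tally is therefore not a measure of how stable the values are. Spans cannot be negative, so only ratios could change sign. No ratio of at least 2-fold did, and 8 values of smaller ratios did. These were the smallest Trdc-positive to Cd4-positive ratio of Xcl1 (-0.09, and 2.60 and 4.49 in the barcode settings) and of Cxcl10 (-0.05, and 0.06), and the ratio of Cxcl10 in responding cells, which was 0.54 in Ga with -1.71 to -0.22 in 4 settings and 0.11 in Gc with -0.07. The small number of positive cells limits Ccl3 and Xcl1 most.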

Other observations

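Genes that went with Ccl4 were sought in cells of Ga and Gc with at least 2 Ccl4 UMIs, 50 and 59 cells, set against cells without Ccl4, among Cd4-positive and other cells without markers of other types. This set was chosen after the data were seen, because the earlier rule left 17 cells in Ga and 18 in Gc. Of 8999 genes ranked by the smaller of the folds in Ga and Gc, those named here were among the first 10. Their large folds thus follow from the choice. The cells without Ccl4 were not matched for response genes. Whether the named genes went with Ccl4 beyond the TCR response was not tested. Rgs16, a regulator of G protein signaling, was 19.8-fold higher in Ga and 19.0-fold in Gc, and Lta, the lymphotoxin alpha gene, 20.2-fold and 12.9-fold. Zeb2, a transcription factor gene, was 16.5-fold and 16.3-fold higher. Bcat1, a branched-chain amino acid transaminase gene, was 10.3-fold and 12.0-fold higher. No Cxcl10 UMI was seen in these Ccl4-positive cells after thinning.

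A few cells with neither Cd4 nor Trdc also held Ccl5. In 62 such cells with at least 10 Ccl5 UMIs, 62.9% had a Cd3 gene, 53.2% Klrd1 and 8.06% Ncr1 after thinning, against 74.0%, 1.57% and 0.0412% of the 4855 such cells without Ccl5.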
